A study of Mus musculus with 2 samples.

Results

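Peaks of the RNA helicase DDX10 at 6 snoRNA host genes of mouse embryonic stem cells are described here. The genes are Eif4g2, Eif4a1, Hspa8, Epb41l4aos, Ddx39b and Cnot1. Their peaks were taken by the gene symbol in the authors' annotation, with each position and strand counted a single time. They numbered 7 of 227 distinct peaks in the series, 6 of 131 in replicate 1 and 1 of 96 in replicate 2. The genes were chosen because their peaks in these same lists lie on snoRNA genes. That overlap, the heights and the presence in a list are therefore given as a description, with no test.

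The peaks come from CLIP-seq, in which ultraviolet light crosslinks a protein to RNA and the RNA fragments purified with it are sequenced. The cells were of the mouse line E14, stably expressing DDX10 with a Flag tag, grown on gelatin with LIF and the inhibitors CHIR99021 and PD0325901. Nuclear extracts were purified on Flag beads and the bound RNA was trimmed with micrococcal nuclease. There was 1 group of 2 libraries, replicate 1 and replicate 2, which the labels do not say came from separate cultures. The tagged protein was added to the cells, and whether the line was 1 clone, and how much DDX10 it made, is not given in the sources used here. No control or input library was used here, so no height is set against the abundance of its RNA. Of 10 marker genes of embryonic stem cells fixed for this report, Pou5f1, Sox2 and Nanog among them, 0 were named for a peak in either list, and the same held for 13 markers of other cell types, so the peak lists cannot check the labelled cell type.

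Small nucleolar RNAs (snoRNAs) guide chemical modification of other RNAs, mostly ribosomal RNA. Those of the box C/D class direct methylation of the ribose, and those of the box H/ACA class direct conversion of uridine to pseudouridine; a few, such as U14 and U22, are needed for the cleavages that release 18S rRNA. In mammals most are encoded in introns. They are cut out of the spliced intron of a host gene, whose exons often encode a protein of translation or ribosome synthesis. DDX10 is a DEAD-box RNA helicase whose yeast counterpart, Dbp4, is known for its part in releasing U14 from pre-ribosomes and in making 18S rRNA.

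Eif4g2 carried the highest peak of the set and the one found in both replicates. This gene (ID 13690) encodes a translation initiation factor related to eIF4G that acts without the cap-binding protein. In mm10, the genome build of the files, the peak lay on the minus strand of chromosome 7, at 111076186 to 111076208 in replicate 1 and at 111076187 to 111076206 in replicate 2. Its height, the authors' value for the greatest number of overlapping tags, was 22 in replicate 1 and 7 in replicate 2. The heights were not scaled for depth. Their 95% exact Poisson intervals were 13.8 to 33.3 and 2.81 to 14.4. These share only 13.8 to 14.4, and sharing a stretch does not show that the heights agree. Such intervals cover counting error only, because PCR can copy 1 molecule into several tags. The peak of replicate 2 lay wholly within that of replicate 1 and covered 87% of it, with a start shifted by 1 bp and an end by 2 bp.

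The Eif4g2 peak lay inside LOC115486847, a RefSeq snoRNA gene of 168 bp at 111076060 to 111076227 and the only one in the host. Counted on the strand of the peak, it spanned bases 20 to 42 of that gene in replicate 1 and bases 22 to 41 in replicate 2. The human counterpart of Eif4g2 is known to carry SNORD97, a box C/D snoRNA that guides methylation of the elongator methionine tRNA. The RefSeq table used here gives neither a snoRNA name nor a class for this locus, and its sequence was not compared with that of SNORD97. With 22 tags the peak ranked 17 of 131 in replicate 1, and with 7 tags it ranked 33 of 96 in replicate 2, sharing that height with other peaks there. The median height was 5 in both lists.

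**Figure D1:**
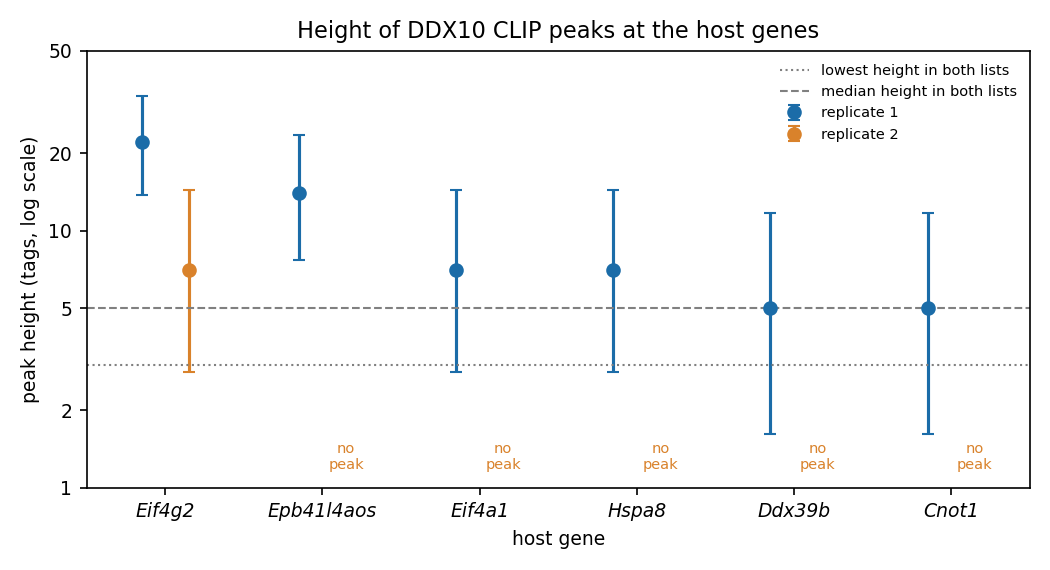
Height of each DDX10 peak (tags, log scale) at the 6 host genes; points are single peaks, bars are 95% exact Poisson intervals, and the dashed and dotted lines mark the median (5) and lowest (3) heights of both lists. Only Eif4g2 has a point in both replicates, at 22 and 7 tags; the other genes stand between 5 and 14 tags in replicate 1 and have no listed peak in replicate 2.

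Epb41l4aos had the next highest peak, in replicate 1 alone. This gene (ID 69749) yields a long noncoding RNA on chromosome 18, and its RefSeq span of 1098 bp was the shortest of the 6. The peak lay on the plus strand at 33795246 to 33795251 with a height of 14 tags (95% exact Poisson interval 7.65 to 23.5), at rank 21 of 131. It spanned bases 83 to 88 of the 132 bp snoRNA gene Gm23639. The human counterpart of the host is known to carry SNORA13, a box H/ACA snoRNA that guides a pseudouridine in 18S rRNA; that Gm23639 is its mouse copy was not checked by sequence.

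At Hspa8, the constitutive HSP70 chaperone (ID 15481), a peak of 7 tags (95% exact Poisson interval 2.81 to 14.4) stood in replicate 1 alone, on the plus strand of chromosome 9 at 40804782 to 40804792. It lay in Snord14e, a copy of the box C/D snoRNA U14, which pairs with 18S rRNA, guides a methylation in it and is needed for its processing. This was the single overlapped gene of the 6 that the table names as a snoRNA family member. Hspa8 holds 3 U14 copies, Snord14c, Snord14d and Snord14e, in that order from the 5' end. Snord14c carried its own peak of 8 tags in replicate 1, which the authors' annotation named after the snoRNA and the peak caller gave to Hspa8. The peak spanned bases 33 to 51 of the 87 bp in Snord14c and bases 35 to 45 of the 91 bp in Snord14e. These base numbers, counted from the 5' end, overlap, but the copies differ in length and their sequences were not aligned. Snord14d, of 87 bp, had no listed peak. Copies of U14 are close in sequence, and how reads that fit several copies were placed is not given in the sources used here, so the peaks at Snord14c and Snord14e may not be independent.

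Eif4a1, the RNA helicase subunit of the cap-binding complex (ID 13681), also had a peak of 7 tags in replicate 1 alone. It lay on the minus strand of chromosome 11 at 69668935 to 69668940, in bases 56 to 61 of the 144 bp snoRNA gene Gm25835. Eif4a1 holds 3 RefSeq snoRNA genes of 143 to 144 bp, and Gm25835 is the middle one. The ones before and after it, LOC115487892 and LOC115487878, had no listed peak. The human counterpart carries snoRNAs of both classes (SNORA48, SNORA67 and SNORD10), so the class and target of Gm25835 cannot be taken from its host.

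The lowest peaks of the set, of 5 tags each (95% exact Poisson interval 1.62 to 11.7), were at Ddx39b and Cnot1, in replicate 1 alone. Ddx39b (ID 53817) encodes UAP56, a DEAD-box helicase of splicing and mRNA export. Its peak, on the plus strand of chromosome 17 at 35242697 to 35242724, covered bases 20 to 47 of LOC115488830, a snoRNA gene of 77 bp. The other snoRNA gene of this host, Gm25128 of 76 bp, had none. The human counterpart is known to carry the box C/D snoRNAs SNORD84 and SNORD117. Cnot1 (ID 234594) encodes the scaffold of the CCR4-NOT deadenylase. Its peak, on the minus strand of chromosome 8 at 95746084 to 95746091, covered bases 105 to 112 of Gm26493, of 136 bp. The other snoRNA gene in Cnot1, Gm26265 of 135 bp, had no listed peak. The human counterpart is known to carry SNORA46 and SNORA50, both box H/ACA snoRNAs with sites in 18S rRNA. A height of 5 was shared by 19 of the 131 peaks in replicate 1.

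**Figure D2:**
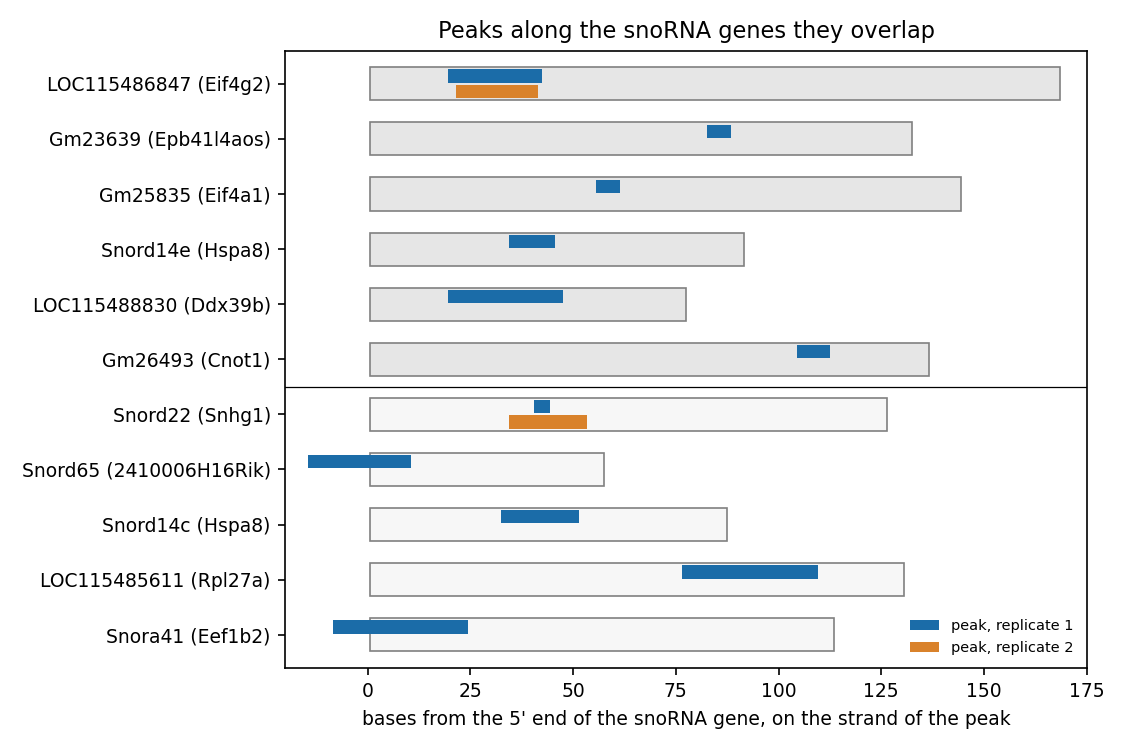
Peaks drawn to scale along the snoRNA genes they overlap, in bases from the end that is 5' on the strand of the peak; grey boxes above the line are snoRNA genes in the 6 hosts (host in brackets), pale boxes below it are those under peaks named after snoRNA genes, blue bars are peaks of replicate 1 and orange bars peaks of replicate 2. The host gene peaks stay within their boxes, while those at Snord65 and Snora41 begin 15 and 9 bases before theirs.

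All 7 host gene peaks lay wholly within a snoRNA gene and on the strand of the host. Over both lists, 93.1% of peaks in replicate 1 and 89.6% in replicate 2 were on the strand of the gene named for them. Of all peaks, 8.40% in replicate 1 and 2.08% in replicate 2 shared at least 1 bp with a snoRNA or guide RNA gene of RefSeq, but the hosts were chosen by this measure and nothing is read from it. Within the snoRNA genes the positions differed. The Eif4g2 peak was centred at 18.5% of the snoRNA gene's length in replicate 1, those at Eif4a1, Ddx39b and Hspa8 at 40.6%, 43.5% and 44%, and those at Epb41l4aos and Cnot1 at 64.8% and 79.8%. No single part of the gene was thus common to the set. In bases, the distance from the peak to the 3' end of the snoRNA gene was 24 at Cnot1, 30 at Ddx39b, 44 at Epb41l4aos, 46 at Hspa8, 83 at Eif4a1 and, in replicate 1, 126 at Eif4g2.

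The peaks named after snoRNA and scaRNA genes, 7 in replicate 1 and 1 in replicate 2, are the nearest comparison. Of these 8, 6 overlapped a snoRNA gene, and 4 of the 6 lay wholly inside it. Snord22, a box C/D snoRNA in the host Snhg1, had heights of 85 and 17 tags at bases 41 to 44 and 35 to 53 of 126. The peaks named Snord14c, Snora3 and Snora41 had heights of 8, 6 and 5 tags, within the range of the host gene peaks, and also sat in RefSeq host genes, namely Hspa8, Rpl27a and Eef1b2. Snord65, with 12 tags, lay in 2410006H16Rik. Loci named after the snoRNA and loci named after the host thus both lay in RefSeq host genes. Just outside the overlap, a peak of 5 tags named Scarna9 lay 35 bp from Gm24339 and a peak of 11 tags at Ncapd2 lay 59 bp from Scarna10.

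The host genes held more snoRNA genes than were marked. Together their RefSeq spans held 12 snoRNA genes, which made up 1420 of 126704 bp (1.12%). Of the 12, 7 had a peak in replicate 1, counting Snord14c, and 1 had a peak in replicate 2. Over the whole genome, 0.797% of 1381 RefSeq snoRNA and guide RNA genes were overlapped by a peak in replicate 1 and 0.145% in replicate 2; the hosts were chosen for such peaks, so the shares are not to be compared. The 5 without a listed peak were Snord14d, LOC115487892, LOC115487878, Gm25128 and Gm26265. All 7 peaks of any symbol within the 6 spans in replicate 1, and the 1 in replicate 2, were on snoRNA genes, and the rest of the spans had 0 listed peaks. A site that did not reach 3 tags, the lowest height in either list, would not appear, so its absence from a list does not show that it was not bound.

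**Figure D3:**
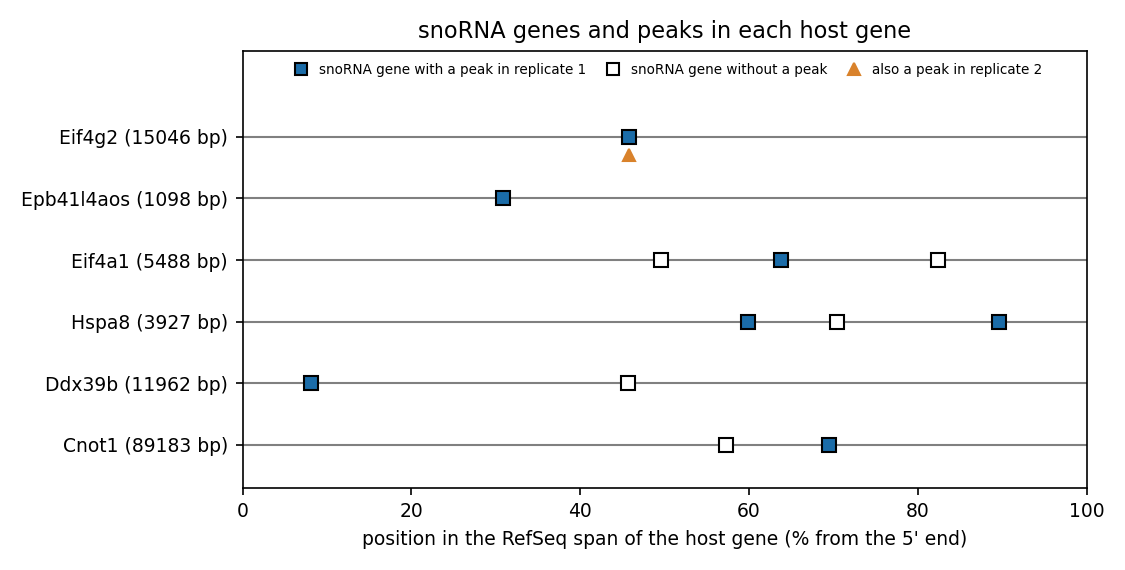
The 12 snoRNA genes in the 6 host genes, placed by percent of the RefSeq span from the 5' end, with the span in bp beside each name. Filled squares are the 7 snoRNA genes with a peak in replicate 1, open squares the 5 with no listed peak, and the triangle marks the peak at Eif4g2 that was also found in replicate 2.

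The authors' annotation placed 5 of the 6 peaks of replicate 1 in the promoter class, which held 21.4% of peaks in that list, and the Eif4g2 peak of replicate 2 in it too, against 20.8% there. The class reaches 1 kb either side of a transcript's start, since 988 bp was the greatest distance found in it. The distances were 1 bp at Eif4g2, 30 bp at Ddx39b, 298 bp at Hspa8, 307 bp at Epb41l4aos and -646 bp at Eif4a1, each from the start of the transcript named in its row. The transcripts named in these rows differed in length from the RefSeq genes. At Eif4g2 the transcript was 998 bp long in a gene of 15046 bp, and at Eif4a1 it was 837 bp long in a gene of 5488 bp. At Ddx39b and Epb41l4aos it was 11010 of 11962 bp and 1031 of 1098 bp, and at Hspa8, with 5604 bp, it was longer than the RefSeq span of 3927 bp. Measured from the start of the RefSeq gene, the same peaks lay 6822 bp downstream at Eif4g2, 3506 bp at Hspa8, 3483 bp at Eif4a1, 951 bp at Ddx39b and 354 bp at Epb41l4aos. Within 1 kb of the RefSeq start there were thus 2 of the 5, at Ddx39b and Epb41l4aos. The Cnot1 peak, 62022 bp from the RefSeq start, was classed as exonic, with a transcript of 1 exon cited, at a distance of -5902 bp from the start of the transcript named in its row. None of the 6 was classed as intronic.

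The peaks differed in width. In replicate 1 their widths were 6 bp at Eif4a1 and Epb41l4aos, 8 bp at Cnot1, 11 bp at Hspa8, 23 bp at Eif4g2 and 28 bp at Ddx39b. Widths of at most 11 bp were found at 4 of the 6, against 25 of the 131 peaks of the list (19.1%). The 25 include these 4, and the limit, which is the width at Hspa8, was chosen after the values were seen. The median over the list was 20 bp, which the peaks at Eif4g2 and Ddx39b exceeded. In replicate 2 the Eif4g2 peak was 20 bp wide, against a list median of 18 bp.

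The peak caller wrote an expected height, PH0, beside each peak, and how far a height exceeded it differed widely among the hosts. At Eif4g2 the expected height was 0.06 tags in replicate 1 and 0.02 in replicate 2, and the heights were 367 and 350 times it. PH0 was written to 0.01 tags, and that rounding alone allows 338 to 400 times and 280 to 467 times, ranges that overlap. At Eif4a1 the expected height was 0.10 and the ratio 70. At Hspa8 they were 0.22 and 31.8, and at Epb41l4aos 0.52 and 26.9. At Ddx39b and Cnot1 PH0 was written as 0.00, as for 63.4% of peaks in replicate 1 (67.7% in replicate 2), and no ratio was formed. Where PH0 was above 0, the median ratio was 350 over 48 peaks of replicate 1 and 400 over 31 of replicate 2. At Eif4g2 the range that rounding allows held this median in both replicates, and Eif4a1, Hspa8 and Epb41l4aos were below that of replicate 1. These medians leave out most peaks of each list, those with PH0 written as 0.00, whose ratios would be larger. Medians over the whole lists would therefore be higher, and Eif4g2 would stand below them. Among the hosts, Ddx39b and Cnot1 would have the highest ratios.

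The order by this ratio was not the order by height, and a position written under 2 gene IDs bears on it. The Snord22 peak of replicate 1, 85 tags high, was listed under Snhg1 with an expected height of 1.19 and under Snord22 with 25.91. The same tags were therefore 71.4 times the expected height under the host and 3.28 times under the snoRNA. The expected heights differed by 21.8 times and the spans, 126 bp and 2840 bp, by 22.5 times. PH0 times the span differed by 1.04 times (3380 and 3265, in tags times bp). Each of the 7 host gene peaks was written under the host's ID. Whether PH0 follows the span at these genes as it did at this 1 position was not tested. The ratio was 26.9 at Epb41l4aos, in a gene of 1098 bp, and 367 at Eif4g2, in a gene of 15046 bp, although the heights were 14 and 22 tags. The ratio of Snord22 in replicate 1 was kept under its own ID, so it is not set beside those of the hosts.

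PH0 times the RefSeq span, divided by the height, was 41 bp at Eif4g2 in replicate 1, 43 bp in replicate 2 and 40.8 bp at Epb41l4aos. At the doubly listed Snord22 position it was 39.8 and 38.4 bp. It was 78.4 bp at Eif4a1. Hspa8, where the peak caller had 2 peaks, gave 57.6 bp over their summed height of 15 tags. In other genes with 1 peak and a PH0 of at least 0.05 in replicate 1, it ran from 38.4 to 78.4 bp with a median of 47 bp, over 6 peaks. The lowest of these values was that of Snord22 under its own ID. Snora41, Snord65, Snora3 and Snord96a were also among the 6 peaks, so they are mostly peaks named after snoRNA genes and no separate reference. In replicate 1, Eif4g2 and Epb41l4aos were near the low end of these values and Eif4a1 at the high end. The rounding of PH0 was not carried into these values. Eif4g2 in replicate 2, with a PH0 of 0.02, was below the limit of 0.05. How the peak caller computed PH0 is not given in the sources used here.

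**Figure D4:**
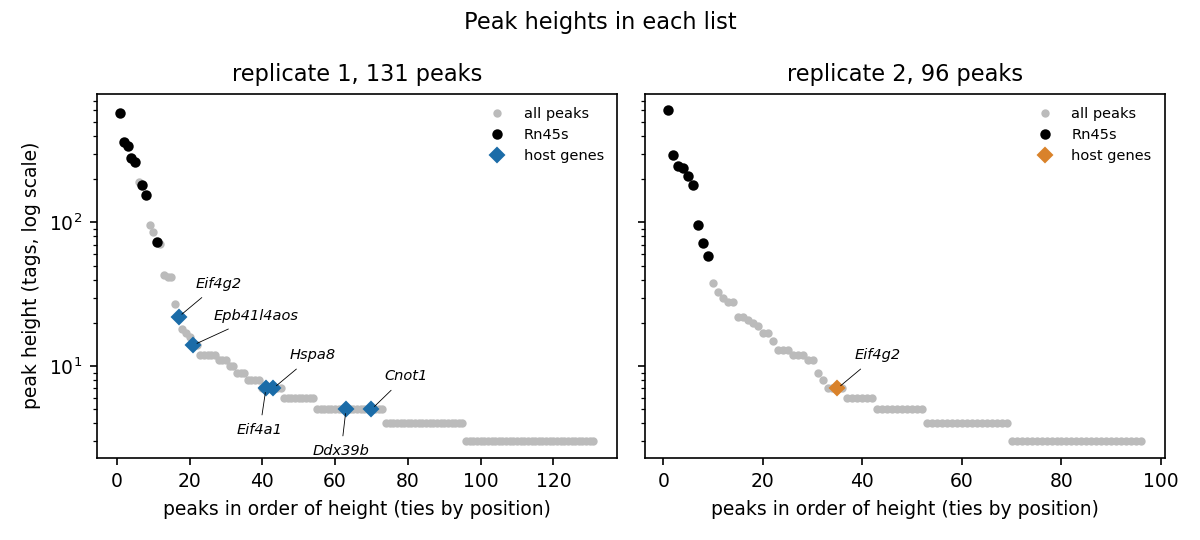
Height of every distinct peak (tags, log scale) in order of height in replicate 1 (131 peaks) and replicate 2 (96 peaks), with Rn45s in black and the host genes as diamonds. Eif4g2 and Epb41l4aos, at 22 and 14 tags, stand in the upper part of replicate 1, the other hosts at 5 to 7 tags near its middle, and Eif4g2, at 7 tags, at rank 33 of 96 in replicate 2.

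Presence in both lists was limited to Eif4g2 among the 6 hosts, against 33.6% of peaks in replicate 1 and 45.8% in replicate 2 that had a partner. The hosts were also placed among peaks of like height, in bands chosen after the values were seen. The bounds of the bands were heights of the hosts, and the bands include the hosts. Of 34 peaks with 5 to 7 tags in replicate 1, 9 had a partner (26.5%, 95% exact Clopper-Pearson interval 12.9% to 44.4%), and the 4 hosts in this band, Eif4a1, Hspa8, Ddx39b and Cnot1, were all among those without. Of 6 peaks with 14 to 22 tags, 5 had a partner (83.3%, interval 35.9% to 99.6%), and the exception was Epb41l4aos. Hosts were 2 of these 6 peaks, so the bands are no separate reference and nothing is read from their shares. The intervals also treat the peaks as independent.

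The height at Eif4g2 in replicate 2 was 0.318 times that in replicate 1. Over the 44 shared peaks this ratio had a median of 0.805 and ran from 0.156 to 4.33, and 6 pairs were below Eif4g2. At Snord22, the other snoRNA locus in both lists, it was 0.2. Peaks missing from a list could not enter this median. The ratio of summed heights over the whole lists was lower, at 0.77, and 0.546 without Rn45s. Scaling by either would give lower heights than scaling by the median. Scaled by the median ratio, the heights of the 5 hosts missing from replicate 2 would be 11.3 at Epb41l4aos, 5.64 at Eif4a1 and Hspa8 and 4.03 at Ddx39b and Cnot1, all above the lowest listed height of 3. Scaled by the ratio at Eif4g2 they would be 4.45, 2.23 and 1.59, and only Epb41l4aos would stand above 3. A height above 3 does not mean that a peak would be listed. The highest p-value of the peak caller was 0.0471 in replicate 1 and 0.0396 in replicate 2, and at Hspa8 the peak of 7 tags had 0.014. Read totals of the libraries are not known, and the part of depth in these absences was not tested.

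The summed height of the 6 hosts was 60 of 3491 over all peaks in replicate 1 (1.72%) and 7 of 2687 in replicate 2 (0.261%). A sum of heights is not a count of tags. Their mean share was 0.99% ± 1.03 (SD, n = 2). The spread between the replicates was as large as the mean. Most of the summed height in both lists lay at Rn45s, the rRNA precursor. Without Rn45s the hosts held 4.77% of a summed height of 1258 in replicate 1 and 1.02% of 687 in replicate 2.

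Few of the other snoRNA host genes were named for a peak. A list of 75 such genes, written from general knowledge and including these 6, had 7 members named for a peak in replicate 1 (9.33%) and 2 in replicate 2 (2.67%), beside 0.218% and 0.166% of 49997 RefSeq genes. Because the list holds genes chosen from these lists, its share is not independent evidence. Apart from the 6, 1 of 69 members was named for a peak in each replicate, Mrpl3, a mitochondrial ribosomal protein gene with heights of 12 and 21 tags, and no RefSeq snoRNA gene lies in its mouse span. Counted by a whole peak inside the RefSeq span, 11 members held one in replicate 1 and 3 in replicate 2 (background 0.238% and 0.182%). The additions were Snhg1 in both, and Rack1, Rpl27a and Eef1b2 in replicate 1, whose peaks carry snoRNA names. Apart from the 6, 5 of 69 members held a peak by position in replicate 1 and 2 of 69 in replicate 2, beside the same background. The list was written with earlier results of these data known. Of 23 genes for cytosolic ribosomal proteins in the list, the largest family of hosts in it, Rpl27a was the only one to hold a peak, in replicate 1.

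The RefSeq table gave a further view without a hand-written list. It held 505 protein-coding or long noncoding genes whose span contains a whole snoRNA gene on either strand. In replicate 1, 13 of them (2.57%) held 14 peaks. Of these, 11 overlapped a snoRNA gene, 2 lay within 100 bp of one and 1, at Rack1, lay 239 bp away. Over all RefSeq genes, 0.238% held a peak in replicate 1 and 0.182% in replicate 2. The 13 include the 6 hosts, which were chosen from these lists, so the shares are not independent evidence. In replicate 2, 6 of the 505 (1.19%) held 6 peaks. Those at Eif4g2 and Snhg1 overlapped a snoRNA gene, and the other 4, at Fhit, Cntn5, Alg9 and Pcsk5, lay 6960 to 918896 bp from the nearest snoRNA gene of their host.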

How the data were processed

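CLIP-seq of Flag-tagged DDX10 gave 1 annotated peak list per library (2 replicates). Peak heights are the authors' deposited signal, in whole tags not scaled for depth; the total number of reads is unknown. Reads were aligned to mm10, and BWA, ChIPseeker and deepTools were named without version or role, per the submitters' processing notes. Which peak caller was used is not given in the sources used here. Replicate 1 had 133 lines and replicate 2 had 98; positions listed under 2 gene IDs were counted a single time, keeping the line whose ID matched the annotated gene, which left 131 and 96 peaks. Other deposited values were used as the authors gave them: width and distance to a start in bp, and PH0 and p-value from the peak name.

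Gene and snoRNA spans came from a RefSeq table (GRCm38.p6, the build of mm10), which gives neither strand nor exons and names some snoRNA genes, such as Snord14e, only by symbol; no sequence of a peak or snoRNA was used. The strand of a snoRNA gene was taken as that of the peak. A partner was a peak of the other list with at least 1 bp in common on the same strand. Exact Poisson and Clopper-Pearson 95% intervals came from scipy 1.17.1 under Python 3.11.15. Overlap functions were tested on simulated data. The hosts and lists were chosen with earlier results of these data known. Named were the 6 hosts, the snoRNA genes in them, listed hosts with a peak and peaks named after snoRNA genes; Fhit, Cntn5, Alg9, Pcsk5 and Ncapd2 were named after their values were seen.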

Additional observations from a re-analysis of the deposited data

How the results depend on the processing

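Of 32 comparisons of a result with an alternative, 24 were labelled close to the main value, by the ratio of counts or by the replicate SD of other values. This count is no measure of stability. With 2 replicates, leaving either out always moves the mean share by less than the SD, so those comparisons were bound to be labelled close. Height over the median height of the list was also labelled close, although its measure differs from that of the main value. Without replicate 1 the host gene peaks fell from 7 to 1, all the others being from replicate 1, and without replicate 2 they were 6; the same values hold for those overlapping a snoRNA gene. Listed hosts named for a peak were 2 without replicate 1 and 7 without replicate 2. Counted by position rather than symbol, they rose from 7 to 11 in replicate 1. No partner remained (0, against 1 at Eif4g2) where identical bounds were required. The mean share of summed height, 0.99%, was 2.89% without Rn45s, 2.38% with height times width, 0.261% without replicate 1 and 1.72% without replicate 2. The median height over PH0 was 70 over the peaks with PH0 above 0, 350 without replicate 1 and 50.9 without replicate 2. It left out Ddx39b and Cnot1, whose PH0 was written as 0.00 and whose ratios would be above those of the other hosts. With them the median would be higher, both over the 2 lists and in replicate 1. Height over the median height of the list, which is another quantity, was 1.4. The Hspa8 peak alone did not pass the stricter limit of 0.01 on the peak caller's value, which left 5 peaks in replicate 1. With 1 group and 2 replicates no test between conditions exists, and at heights of 5 to 7 tags a missing peak cannot be told from one too weak to be listed. No paired analysis was possible because there was 1 group.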
